A study of Mus musculus with 4 samples.

Results

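The genes described here are 10 members of the vascular endothelial growth factor (VEGF) axis and its local opponents in cartilage: the VEGF family ligands Vegfa, Vegfb, Vegfc, Vegfd and Pgf, the neuropilin co-receptors Nrp1 and Nrp2, the angiopoietin Angpt1, and the anti-angiogenic genes Cnmd (chondromodulin) and Serpinf1 (pigment epithelium-derived factor). They were taken by gene symbol from a fixed list, and 10 of the 25239 symbols in the count table matched. Poly(A) RNA-seq libraries were made from primary mouse chondrocytes, 2 per genotype. Controls were Tiki2 fl/fl, and the conditional knockouts (cKO) were Tiki2 fl/fl with Col2a1-Cre/ERT, in which a promoter of cartilage cells drives a Cre that is activated by 4-hydroxytamoxifen. Both genotypes received 4-hydroxytamoxifen, and the comparison asks what loss of the Wnt antagonist Tiki2 (gene symbol Trabd2b) does to these genes. The Cre was present in the cKO libraries only, so its own effect and the loss of Tiki2 cannot be told apart. The labels give no age and do not tie libraries to separate animals or cultures, so p-values cover the spread between these libraries. The controls differed in sex by the counts of Xist and Ddx3y given below, so they came from different animals. The spread between the cKO libraries may be technical.

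VEGF ligands bind receptor tyrosine kinases on endothelial cells, and neuropilins hold the ligand beside those receptors. Articular cartilage has no vessels, and chondrocytes secrete inhibitors such as chondromodulin into its matrix. In the growth plate, hypertrophic chondrocytes release VEGFA, and vessels then invade the cartilage as bone forms. Transcription of Vegfa is a textbook target of hypoxia-inducible factor (HIF), which oxygen-sensing prolyl hydroxylases mark for destruction when oxygen is plentiful.

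Library totals ran from 66750140 to 78873054 counts. Trabd2b, on mm10 chromosome 4 (114406724 to 114615098), had 28513 and 31314 counts in controls and 22643 and 29473 in cKO, a log2 fold change of -0.38 ± 0.11 (SE), with an adjusted p of 0.148 by the edgeR quasi-likelihood test. It was -0.23 without cKO replicate 1 (edgeR adjusted p = 0.13) and -0.54 without cKO replicate 2 (0.027, past the threshold). Whole-gene counts cannot show loss of the floxed part alone. Control replicate 1 stood apart by sex: it held 112185 counts of Xist, the RNA of the silenced X chromosome, against 36 to 171 in the other 3 libraries, and 0 counts of the Y-linked Ddx3y against 11073 to 12085. Both cKO libraries had the male pattern, like control replicate 2, so sex and genotype were partly confounded. Ratios, shares and levels below include control replicate 1.

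Upstream sequence is shown for the pair of genes with the most negative log2 fold changes, Vegfa and Cnmd, because they stand for the opposing arms of the axis. Each run is the 250 bases before the RefSeq transcription start (build GRCm38.p6), read 5′ to 3′ on the gene's strand, which is the minus strand for both. Vegfa lies at chr17:46032378-46032627 and Cnmd at chr14:79662184-79662433. Capitals mark GC boxes, the letters GGGCGG that Sp-type factors bind.
Vegfa: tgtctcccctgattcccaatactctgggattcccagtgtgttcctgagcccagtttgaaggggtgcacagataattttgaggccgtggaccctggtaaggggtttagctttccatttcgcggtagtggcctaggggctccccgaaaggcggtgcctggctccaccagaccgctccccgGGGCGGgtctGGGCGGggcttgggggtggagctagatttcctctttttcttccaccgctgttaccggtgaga
Cnmd: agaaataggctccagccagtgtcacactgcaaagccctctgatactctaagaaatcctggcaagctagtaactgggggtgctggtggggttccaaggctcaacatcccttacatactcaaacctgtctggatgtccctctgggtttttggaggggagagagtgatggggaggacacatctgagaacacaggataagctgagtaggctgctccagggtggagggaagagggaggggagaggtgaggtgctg

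The Vegfa window held 2 GC boxes, which begin 72 and 62 bases before the start, while the Cnmd window held 0. Both strands were searched, and among 32851 upstream windows of this length 32.7% held at least 1 GC box. The HIF core (ACGTG or GCGTG, in 38.6% of windows) and the TCF/LEF motif of Wnt signalling (the letters CTTTG followed by any pair of A or T, in 14.8%) had 0 matches in either window. RefSeq gives Vegfa another start inside the gene, and the 250 bases before that start (chr17:46025164-46025413) held 1 GC box and 2 HIF cores, 218 and 211 bases before it. This window lies within the transcribed gene, so its matches may be exon sequence that codes for the protein, which was not tested. A match to letters is a description of the window and shows no binding. Absence from 250 bases says nothing of sites further from the start. RefSeq windows were found for 9 of the 10 genes, all but Angpt1. At the first RefSeq start, Nrp2 held 5 GC boxes, 2 HIF cores and 1 TCF/LEF match, Vegfb 4 GC boxes and 2 HIF cores, and Vegfd none of the 3 motifs.

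Levels of different genes were compared as CPM, counts scaled to a common library size, per kilobase of all annotated exons joined (CPM per kb). Cnmd was the highest of the 10 in controls, at 412 ± 4.70 CPM per kb (SD, n = 2), above 99.6% of the 15164 tested genes that have a length. Vegfa followed at 108 ± 4.07 CPM per kb. Nrp2 (68.8 ± 0.0446 CPM per kb) and Serpinf1 (68.5 ± 7.09 CPM per kb) differed by less than the spread between libraries. A middle tier held Vegfb (21.7 ± 0.216 CPM per kb), Nrp1 (17.6 ± 0.710), Angpt1 (17.3 ± 0.529) and Vegfd (13.9 ± 1.12), of which Nrp1 and Angpt1 could not be separated. Vegfc was low at 1.97 ± 0.200 CPM per kb, and Pgf was the lowest at 0.162 ± 0.0682 CPM per kb. In cKO the order at the top was Cnmd (194 ± 63.5 CPM per kb), Serpinf1 (84.7 ± 6.54), Vegfa (77.1 ± 3.89) and Nrp2 (68.2 ± 5.34), and in the same units Vegfd (21.3 ± 4.00), Angpt1 (19.9 ± 1.98), Vegfb (19.8 ± 0.672) and Nrp1 (19.3 ± 1.49) lay within their spreads of each other. These levels depend on the length assumed for the neuropilins, whose annotated exons include alternative ends. With the longest single transcript, Nrp1 stood at 47.3 CPM per kb in controls, above Vegfb at 27.2, and Nrp2 at 121 CPM per kb, near Vegfa at 134. In cKO that length reversed the order below Cnmd, with Nrp2 at 120 CPM per kb, Serpinf1 at 109 and Vegfa at 95.8.

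**Figure D1:**
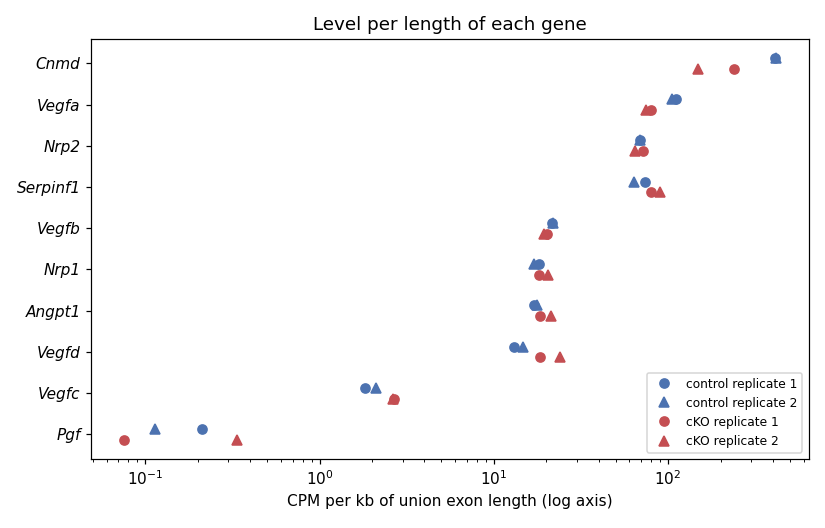
Level of each gene in each library, as CPM per kb of union exon length on a log axis; blue marks are controls, red marks cKO, circles replicate 1 and triangles replicate 2. Cnmd lies at the top in every library, and its cKO marks sit left of its control marks; Pgf lies at the bottom with marks of both genotypes interleaved.

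Among the ligands, Vegfa fell in cKO, and it was the only one of the 10 genes to pass the test. Vegfa encodes the main angiogenic ligand of the family and lies on chromosome 17 (46016993 to 46032369). Its TMM-scaled CPM stood at 473 and 449 in the control libraries, against 342 and 319 in cKO. Both cKO libraries lay below both controls, and the gap between genotypes was wider than the gap within either. The change was a fall by 0.48 ± 0.07 on the log2 scale (95% interval -0.64 to -0.32), 1.39-fold lower, with an edgeR adjusted p of 0.0373. Of the 10 members 1 passed downward, beside 0.908% of all genes tested, and 0 passed upward, beside 0.393%. An unadjusted edgeR p below 0.05 was found for 5 (Vegfa, Vegfc, Vegfd, Cnmd and Serpinf1), beside 17.2% of all genes. DESeq2 called 2 higher (Vegfd and Serpinf1) and 2 lower (Vegfa and Cnmd), beside 7.87% of all genes it tested. Limma-voom called 0 higher and 2 lower, Vegfa and Cnmd, beside 106 higher and 227 lower of all 15522 genes tested. Leaving out a library mattered for the Vegfa call: the log2 fold change was -0.44 without control replicate 1 (edgeR adjusted p = 0.151), -0.52 without control replicate 2 (0.168), -0.53 without cKO replicate 1 (0.00919) and -0.43 without cKO replicate 2 (0.0543). Counts cover all 13 annotated Vegfa transcripts together, so the heparin-binding and freely diffusing forms of the protein could not be separated.

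**Figure D2:**
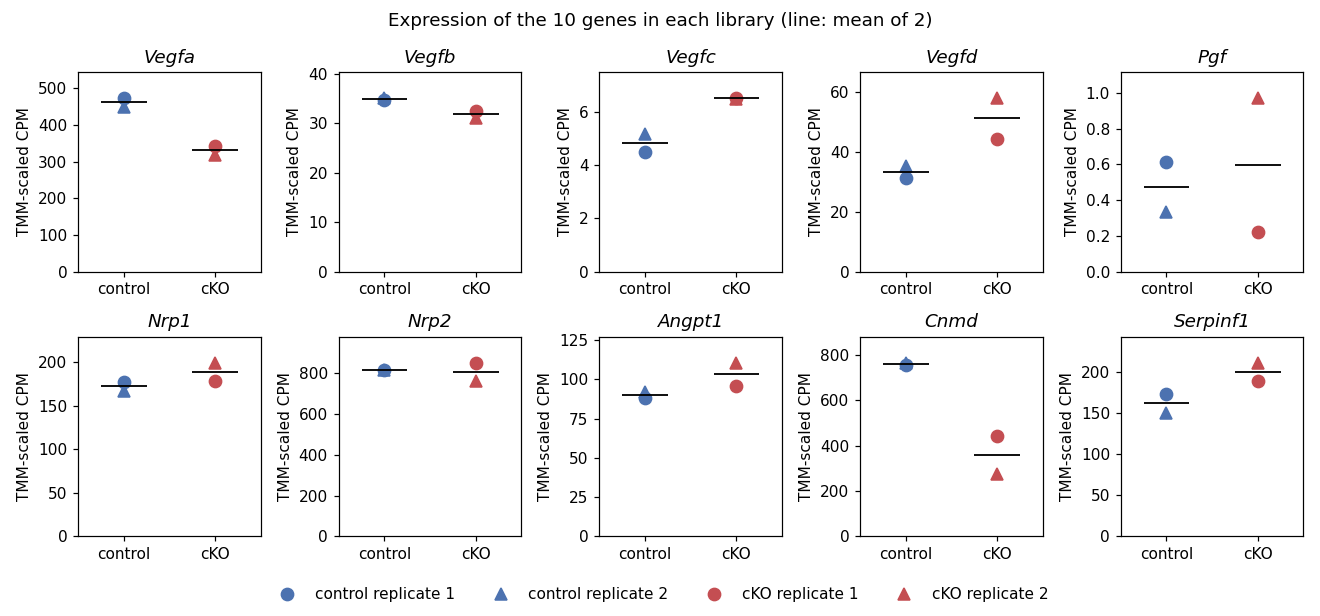
TMM-scaled CPM of the 10 genes by library, each panel from 0; blue marks are controls, red marks cKO, circles replicate 1, triangles replicate 2, and lines the mean of 2. Vegfa, Vegfb and Cnmd sit lower in both cKO libraries, Vegfc, Vegfd, Nrp1, Angpt1 and Serpinf1 sit higher, and Nrp2 and Pgf overlap.

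Vegfd, a ligand that drives growth of lymphatic vessels, had the largest positive difference of the 10. The gene lies on chromosome X (164373378 to 164402650). Its CPM were 31.5 and 35.3 in controls and 44.5 and 58.1 in cKO, with no overlap, although the cKO libraries differed more from each other than the controls did. The log2 fold change was 0.62 ± 0.14 (95% interval 0.28 to 0.95), with an edgeR adjusted p of 0.0978, while that of DESeq2 was 0.00111. Control replicate 1, the library with high Xist, had the lowest value of this X-linked gene. Without it the log2 fold change was 0.54 (edgeR adjusted p = 0.316), and without control replicate 2 it was 0.70 (0.28). Without cKO replicate 1 it was 0.80 (edgeR adjusted p = 0.00813), the single such fit to pass, and without cKO replicate 2 it was 0.41 (0.201).

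Vegfc, the close relative of Vegfd with the same lymphatic receptor, was at 4.48 and 5.17 CPM in controls and 6.52 and 6.50 in cKO. Its gene lies on chromosome 8 (54077606 to 54187096). Both cKO values were above both controls, with a log2 fold change of 0.43 ± 0.17 (0.33 without control replicate 1) and an edgeR adjusted p of 0.283. Vegfb, on chromosome 19 (6982473 to 6987651), encodes a ligand linked to fatty acid transport across endothelium. It was at 34.6 and 35.1 CPM in controls and 32.5 and 31.0 in cKO. Its log2 fold change was -0.13 ± 0.08 (-0.14 without control replicate 1), at 0.456 for the edgeR adjusted p. Pgf, placental growth factor, on chromosome 12 (85166635 to 85177790), had only 40 and 25 counts in controls and 17 and 79 in cKO. The Pgf groups overlapped, and its 95% interval, from -1.72 to 2.40 on the log2 scale, allows a large difference in either direction at this depth.

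Shares within the family do not depend on how libraries are scaled. Vegfa made up 75.1% and 73.0% of the summed counts per kb of the 5 ligands in controls, and 65.8% and 61.6% in cKO. The share of Vegfd was 8.89% and 10.2% in controls and 15.2% and 19.97% in cKO, and that of Vegfb stayed between 14.7% and 16.7%. Vegfa exceeded Vegfd 8.44-fold and 7.14-fold per kb in the control libraries, and 4.32-fold and 3.08-fold in the cKO libraries. These ratios separated the genotypes, but 2 libraries against 2 cannot give an exact two-sided permutation p below 0.333. Summed over the 5 ligands, the level was 145 ± 2.60 CPM per kb in controls and 121 ± 0.390 in cKO (SD, n = 2).

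**Figure D3:**
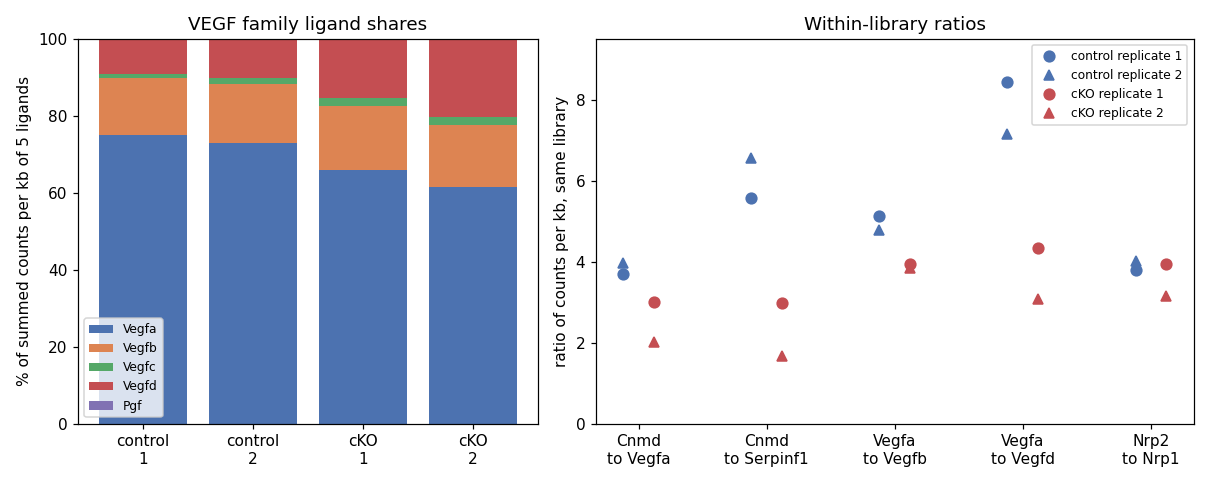
Left, percent of the summed counts per kb of 5 VEGF family ligands taken by each ligand in each library; right, ratios of counts per kb between pairs of genes in the same library (blue controls, red cKO, circles replicate 1, triangles replicate 2). The Vegfa share is smaller and the Vegfd share larger in both cKO libraries, and of the 5 ratios plotted Nrp2 to Nrp1 overlaps between genotypes.

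The neuropilins did not pass the test. Nrp2, on chromosome 1 (62703285 to 62818695), is the co-receptor of lymphatic endothelium and of some semaphorins. Its CPM were 815 and 814 in controls, 853 in cKO replicate 1 and 763 in cKO replicate 2. The cKO libraries lay on either side of the controls, and the log2 fold change was -0.01 ± 0.07, with a 95% interval of -0.18 to 0.15. Nrp1, on chromosome 8 (128358604 to 128503363), binds VEGFA and class 3 semaphorins. It was at 177 and 167 CPM in controls and 179 and 199 in cKO. Control replicate 1 and cKO replicate 1 almost met, and the log2 fold change was 0.13 ± 0.07 (0.18 without control replicate 1), with 0.418 as the edgeR adjusted p.

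Receptors of vascular endothelium had few counts in these libraries. Kdr, the main VEGFA receptor of endothelium, had 6 to 23 counts per library, Flt1, which binds VEGFA, VEGFB and placental growth factor, had 12 to 51, Tek, the angiopoietin receptor, had 11 to 64, and Tie1 had 0 to 3. Among 12 endothelial markers Emcn and Sox17 were at 0 in all libraries, Pecam1 had 0 to 9 counts and Cdh5 0 to 4. Vwf had more, at 155 to 254 counts, as did Egfl7, at 131 to 189. The summed endothelial markers ran from 26.9 to 30.4 CPM, of which the transcription factor gene Erg gave 21.5 to 25.1. Flt4, the receptor of VEGFC and VEGFD, was detected at 3.63 ± 0.178 CPM in controls and 5.12 ± 0.125 in cKO (SD, n = 2; edgeR adjusted p = 0.263).

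Of 12 tested receptors, plexins and other binding partners of the axis, 0 passed the edgeR test, while 4 had an unadjusted p under 0.05 (beside 17.2% of all genes) and DESeq2 called 3 higher (beside 7.87% of all genes in either direction). The list median was a log2 fold change of 0.12, against 0.00 over all genes tested. Plexins pair with neuropilins to receive semaphorin signals, and Plxna2 was at 114 ± 2.77 and 151 ± 14.2 CPM in controls and cKO (edgeR adjusted p = 0.0677; SD, n = 2). Plxna1 was at 201 ± 13.3 and 252 ± 8.76 CPM (edgeR adjusted p = 0.087). Another plexin gene, Plxnd1, was at 29.4 ± 1.95 and 42.1 ± 7.08 CPM (0.117). Over the leave-one-out fits the list median ran from 0.094 to 0.258. Of 7 class 3 semaphorins, the other neuropilin ligands, 0 passed in edgeR. There 2 had an unadjusted p below 0.05, beside 17.2% of all genes, and DESeq2 called 2 higher, beside 7.87% in either direction. Of the 7, 6 lay above 0, but 4 did without control replicate 1. Sema3c was at 313 and 360 in controls and 444 and 433 CPM in cKO (edgeR adjusted p = 0.085), and Sema3f was at 22.7 and 20.8 against 27.8 and 32.4 (0.105). The semaphorin median was 0.183 with all libraries and ran from 0.109 to 0.279 in leave-one-out fits.

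Angpt1 encodes the agonist of the Tie receptor that stabilises vessels, and lies on chromosome 15 (42424723 to 42676977). Its CPM were 88.3 and 92.2 in controls and 96.1 and 111 in cKO. The groups did not overlap, with cKO replicate 1 close above control replicate 2, and the log2 fold change of 0.20 ± 0.08 (0.16 without control replicate 1) gave an edgeR adjusted p of 0.29. The annotation places an antisense gene, Gm17473, over 737 bases of Angpt1 exons, and counting by strand is not stated, so a part of these reads could belong to it.

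Other angiogenic factors moved in both directions. Of 21 tested, 1 rose (beside 0.393% of all genes) and 1 fell (beside 0.908%). DESeq2 called 4 higher and 1 lower, beside 7.87% of all genes in either direction. The median log2 fold change was 0.34, and 17 were above 0, as were 7824 of all 15522 genes tested. Angptl4, a secreted lipase inhibitor that acts on vessels, stood at 78.9 ± 1.36 CPM in controls and rose to 106 ± 5.75 CPM in cKO (edgeR adjusted p = 0.0422; SD, n = 2). Apln, the ligand of the apelin receptor, fell from 83.9 ± 4.58 to 54.2 ± 1.80 CPM (0.0289). Angptl2 was at 219 ± 3.93 and 276 ± 6.77 CPM (0.0572) and Ccn1, a matricellular angiogenic protein, at 170 ± 10.8 and 211 ± 9.24 CPM (0.0925). The calls on Angptl4 and Apln were lost without either control library, where few of all genes passed. The Angptl4 call was also lost without cKO replicate 2. The list median ran from 0.31 to 0.35 in leave-one-out fits. Adm, an angiogenic peptide gene, is also among the hypoxia targets below.

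The inhibitor Cnmd had the largest difference of the 10 genes in either direction. Chondromodulin is a membrane protein whose cleaved ectodomain stays in cartilage matrix and blocks endothelial growth. The gene lies on chromosome 14 (79637690 to 79662170). Its CPM were 754 and 766 in controls and 441 and 275 in cKO. The controls lay close together, both cKO libraries were far below them, and the cKO libraries also differed widely from each other. The log2 fold change was -1.09 ± 0.20 (95% interval -1.57 to -0.60), 2.12-fold lower in cKO, with an edgeR adjusted p of 0.0676. The adjusted p was 0.0204 in DESeq2 and 0.0431 in limma-voom. The estimate on the log2 scale was -1.47 without cKO replicate 1 (edgeR adjusted p = 0.000175) and -0.79 without cKO replicate 2 (0.0035). Without control replicate 1 and without control replicate 2 the values were -1.10 (0.201) and -1.07 (0.264).

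Cnmd was set against the cartilage genes Col2a1, Acan and Sox9 in the same libraries. The other chondrocyte markers were not used, so the ratios describe those genes only. Its ratio to Col2a1, the main cartilage collagen, was 0.263 and 0.216 per kb in controls and 0.284 and 0.256 in cKO. Per kb it stood to Acan, which encodes aggrecan, at 0.924 and 0.867 in controls and 1.01 and 0.840 in cKO. Both ratios overlapped between genotypes. Against Sox9, the transcription factor of chondrocyte identity, Cnmd was 7.41-fold in each control and 5.01-fold and 3.93-fold in cKO, so this ratio separated the groups. The summed 10 chondrocyte markers were 26017 and 30541 CPM in controls and 15554 and 11676 in cKO. Of the 10, 8 passed downward in edgeR, beside 0.908% of all genes. In bulk RNA, fewer cells of a type and less RNA per cell cannot be told apart. The summed 8 fibroblast markers were 4993 and 4736 CPM in controls and 6644 and 7231 in cKO, and the summed 8 adipocyte markers 202 and 204 against 306 and 500.0, with Lep at 0 in all libraries. The library with the lowest Cnmd, cKO replicate 2, had the highest fibroblast and adipocyte sums. The part of these markers in the Cnmd difference was not tested.

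Serpinf1, the other inhibitor, encodes a secreted serpin that is made by many connective tissue cells and lies on chromosome 11 (75409769 to 75422701). Its CPM were 173 and 150 in controls and 189 and 211 in cKO. The cKO values were above both controls, opposite to Cnmd, with a log2 fold change of 0.31 ± 0.09 and an edgeR adjusted p of 0.166 (0.0251 in DESeq2). Without control replicate 1 the log2 fold change was 0.42, and without control replicate 2 it was 0.21. Per kb, Cnmd exceeded Serpinf1 5.57-fold and 6.55-fold in controls, and 2.99-fold and 1.67-fold in cKO. Against Vegfa, Cnmd stood at 3.70-fold and 3.97-fold in controls and 2.99-fold and 2.01-fold in cKO.

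Of the 10 genes, 5 had both cKO libraries above both controls and 3 had both below, shares to be read beside 24.9% of all genes tested in each direction. The members' median log2 fold change was 0.16, with 6 above 0 and 4 below. Since the genes were picked with results of these libraries known, these counts describe them and support nothing further.

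**Figure D4:**
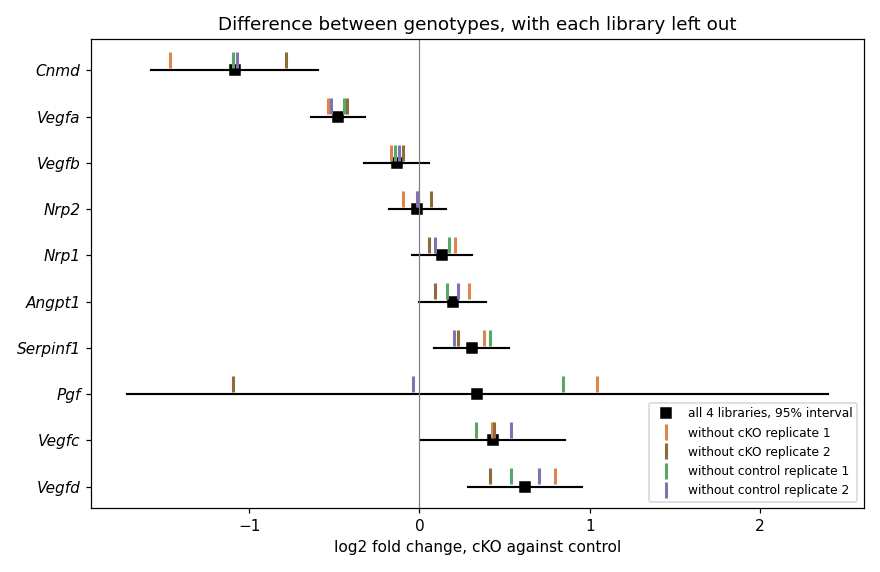
Log2 fold change of cKO against control for each gene; squares and bars are the edgeR estimate and 95% interval from all 4 libraries, and coloured ticks the estimate with 1 library left out. Cnmd, Vegfa and Vegfb keep all ticks below 0 and Vegfd, Vegfc, Serpinf1, Angpt1 and Nrp1 all above 0, while Pgf and Nrp2 have ticks on both sides.

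Other anti-angiogenic genes gave a single call among 14 tested, Thbs2, where 0.393% of all genes were called higher. DESeq2 called 2 of the 14 higher and 1 lower, beside 7.87% of all genes in either direction. Thrombospondin 2, its product, is a matrix protein that restrains vessel growth, and Thbs2 rose by 0.73 ± 0.07 on the log2 scale, from 167 ± 4.47 CPM in controls (SD, n = 2) to 277 ± 20.9 CPM. Its adjusted p in edgeR was 0.0264. The related Thbs1 overlapped between groups, at 9603 ± 159 and 9376 ± 1974 CPM. Tnmd, tenomodulin, the nearest relative of Cnmd, was at a trace level, with 25 and 56 counts in controls and 88 and 112 in cKO (edgeR adjusted p = 0.323). Dcn, the proteoglycan decorin, was at 1740 ± 28.9 and 1470 ± 3.22 CPM (0.083), and Timp2, a metalloproteinase inhibitor, at 3715 ± 69.3 and 4373 ± 142 CPM (0.0853). The list median was 0.02, with 7 above 0 and 7 below. The call on Thbs2 was lost without control replicate 1 and without control replicate 2, where few of all genes passed. Leave-one-out list medians ran from -0.092 to 0.152.

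Of 20 further textbook hypoxia targets, 5 fell and 0 rose, beside 0.908% and 0.393% of all genes, and the median log2 fold change was -0.37. DESeq2 called 13 lower, beside 7.87% of all genes in either direction. Limma-voom called 11 lower, where 227 of all genes were called lower. All 20 lay below 0 with all libraries, as did 7698 of all 15522 genes tested, and all 20 did in each of the 11 alternatives. The list was drawn up with earlier results of these data known, so this count describes its members only. Angptl4, which rose, was not on it. The glucose transporter gene Slc2a1 went from 644 ± 28.2 to 415 ± 56.6 CPM (SD, n = 2), the carbonic anhydrase gene Car12 from 94.0 ± 11.3 to 49.7 ± 8.84 CPM, and Pfkfb3, a regulator of glycolysis, from 328 ± 6.55 to 251 ± 10.2 CPM. The edgeR adjusted p-values of the 5, which also include Car9 and Bnip3, ran from 0.0417 for Bnip3 to 0.0491 for Pfkfb3. The Vegfa to Slc2a1 ratio per kb overlapped between genotypes, at 0.621 and 0.553 in controls and 0.616 and 0.696 in cKO. Slc2a1 was the only target so compared, and its log2 fold change of -0.64 was larger in size than the list median. The overlap therefore describes this pair only, and ratios of Vegfa to the other targets were not tested. The calls on these targets were lost without either control library, where few of all genes passed. With a replicate block in the model 0 of the 20 were called lower, and with other size factors or library sizes alone 4 were. Leave-one-out fits gave list medians from -0.41 to -0.33.

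Of 9 genes of oxygen sensing, 2 fell in edgeR, beside 0.908% of all genes. DESeq2 called 3 lower, beside 7.87% of all genes in either direction. The 2 edgeR calls are prolyl hydroxylases that mark HIF and are themselves HIF targets. Egln3 went from 55.9 and 57.0 to 32.7 and 33.1 CPM and Egln1 from 233 and 249 to 162 and 151 CPM, with edgeR adjusted p-values of 0.0264 and 0.0289. Hif1a, which encodes the regulated HIF subunit, overlapped between groups, at 1878 ± 53.4 and 1870.4 ± 75.5 CPM (SD, n = 2; log2 fold change -0.01 ± 0.06). The Vegfa to Hif1a ratio per kb was 0.340 and 0.335 in controls and 0.245 and 0.241 in cKO. The 2 calls were lost without control replicate 1 and without control replicate 2. HIF acts mainly through protein stability, which these data do not measure.

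Of 12 genes of chondrocyte hypertrophy, the state in which growth plate cells secrete VEGFA, 1 was called lower by edgeR, beside 0.908% of all genes. DESeq2 called 2 lower, beside 7.87% of all genes in either direction. The edgeR call was Panx3, at 28.6 and 24.8 CPM in controls and 9.83 and 7.75 in cKO, and it fell by 1.60 ± 0.15 on the log2 scale, with 0.0264 as the adjusted p of edgeR. Mmp13 was at 6793 ± 23.0 CPM in controls and 5361 ± 805 in cKO (SD, n = 2; edgeR adjusted p = 0.151). Col10a1, the collagen that defines hypertrophic cells, was at 9.57 and 9.36 CPM in controls and 7.04 and 4.95 in cKO (0.175). Runx2, the regulator of Col10a1, had a log2 fold change of -0.08 ± 0.08. The Panx3 call was lost without either control library, where few of all genes passed. Leaving out each library gave list medians from -0.34 to -0.16.

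**Figure D5:**
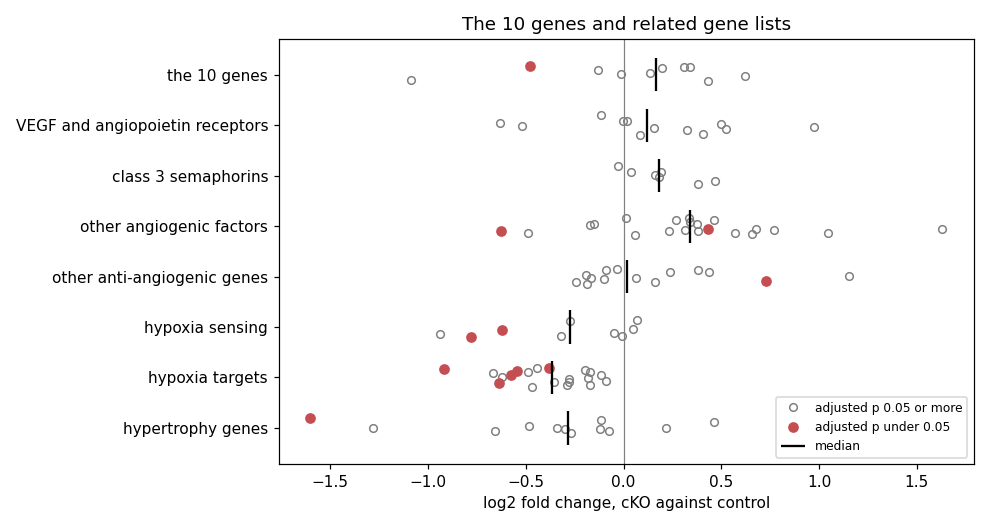
Log2 fold change of cKO against control for the 10 genes and for the tested members of each related list; filled red points have an edgeR adjusted p under 0.05, open points do not, bars are medians, and vertical positions within a row are jittered. All 20 hypoxia targets lie below 0, and 17 of 21 other angiogenic factors lie above 0.

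The genes nearest to Vegfa and to Cnmd across the 4 libraries were found by Euclidean distance between log2 CPM values centred on each gene's mean. Nearest to Vegfa were Slc41a2, Pvr, Ptpn2, Slc39a14 and Nfxl1, at distances of 0.0309 to 0.0461. Slc41a2, a magnesium transporter gene, was at 156 and 151 CPM in controls and 115 and 105 in cKO. Nearest to Cnmd were Angptl6, Trpv4, Trib3, Extl1 and Nrip2, at distances of 0.0364 to 0.0994. Trpv4, which encodes a mechanosensitive calcium channel of chondrocytes, was at 147 and 153 CPM in controls and 85.5 and 52.4 in cKO, with the same order of libraries as Cnmd. With 4 libraries many genes share a pattern, and these are descriptions with no test.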

How the data were processed

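Poly(A) RNA was captured with oligo(dT) and primed at random, per the labels' protocols. Raw counts, whole reads per gene symbol without scaling, were deposited by the authors for the 4 libraries. Among tools, FastQC 0.11.9, Trim Galore 0.6.7, StringTie 2.1.7 and HISAT2 2.2.1 appear in the submitters' processing notes, with build mm10 and no roles. How reads were counted, by strand or not, is not stated there. Of values from 1 to 20 counts, 30.0% to 32.0% were multiples of 4, so counts divided by 4 were also tried. In edgeR 4.0.16 (R 4.3.3), filterByExpr (minimum count 10) kept 15522 genes, including all 10 members. After TMM scaling, genotype was tested by quasi-likelihood, and p-values were adjusted by Benjamini-Hochberg over these genes (threshold 0.05). The SE divides the size of the log2 fold change by the root of F. CPM use TMM-scaled totals, and summed markers use plain totals. The code was checked on simulated data. DESeq2 1.42.0 and limma-voom (3.58.1), other size factors, plain totals, no count filter, a replicate term and leaving out each library were alternatives. GENCODE M21 on mm10 gave positions and lengths for 24321 symbols (96.4%). The members and lists were chosen with earlier results of these data known. Named genes are all members, called list genes with up to 4 others per list by p, and the 5 genes nearest to Vegfa and to Cnmd (prior count 2, mean log2 CPM of at least 1). Kdr, Flt1, Tek, Tie1, Thbs1, Tnmd, Hif1a, Runx2, Pecam1, Cdh5, Vwf, Egfl7 and Erg were named by role, with their values in view. Adm, Col2a1, Acan and Sox9 were also named by role.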

Additional observations from a re-analysis of the deposited data

How the results depend on the processing

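Of the 10 genes, 8 kept their direction in all 11 alternatives. Nrp2 turned positive with library sizes alone (log2 fold change 0.052) and ran from -0.10 to 0.067 in leave-one-out fits, and Pgf ran from -1.10 to 1.04, at -0.04 without control replicate 2. Leave-one-out fits gave -0.53 to -0.43 for Vegfa, -1.47 to -0.79 for Cnmd, 0.41 to 0.80 for Vegfd and -0.54 to -0.23 for Trabd2b. They called 0 to 1 member higher and 0 to 2 lower, and of all genes 1 to 312 higher and 4 to 470 lower. Each leaves 1 genotype with a single library, assumed to vary like the other. DESeq2 called 491 genes higher and 604 lower, with 2 members higher and 2 lower, and passed Vegfd (0.62), Cnmd (-1.08), Serpinf1 (0.31) and Trabd2b (-0.38). Limma-voom called 106 higher and 227 lower, with 2 members lower, and passed Cnmd (-1.13). Library sizes alone gave 116 higher. Counts divided by 4 gave 128 higher and 243 lower, with 2 members lower, and passed Cnmd (-1.09). With a replicate block, 3 genes were called higher and 20 lower, 0 of them members, and Vegfa stood at -0.48 (edgeR adjusted p = 0.0689). That block left 0 calls among other angiogenic factors, other anti-angiogenic genes, hypoxia sensing and hypoxia targets, and 1 hypertrophy gene called lower. Same-numbered libraries had a correlation of -0.12 between their deviations, and the labels do not pair them.

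The alternatives for list medians and for length were added after the data were seen. The median of other angiogenic factors was 0.40 and that of hypoxia targets -0.30 with library sizes alone, and that of receptors 0.24 in DESeq2. Leave-one-out medians ran from 0.094 to 0.258 for receptors, 0.31 to 0.35 for other angiogenic factors, -0.092 to 0.152 for other anti-angiogenic genes, -0.329 to -0.022 for hypoxia sensing and -0.34 to -0.16 for hypertrophy. The cause of these shifts was not tested. Counts of Pgf and of the endothelial receptors limit what can be seen at this depth.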
